A study of Mus musculus with 12 samples.

Results

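*Sox7* (+/−) ES cells carrying Gata6GR became XEN-like cells when Dex was added, and the values below describe which gene programs they gained and lost in 4 days. The 3 arrays of Dex-treated cells were compared with the 3 arrays of the same cells kept without Dex, which are 6 of the 12 arrays of the series. A probe other than a control was kept when each of the 3 arrays of either group read it well above background, and 24999 of 55681 probes met this rule. The study as a whole asked whether *Sox7*, an HMG-box transcription factor of early endoderm, is needed to form primitive endoderm. Its other 6 arrays hold *Sox7* (−/−) cells derived from the same line, and they are used here for a common estimate of the spread and, where stated, for the difference between the genotypes.

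Both groups were cells of the line S7mtG1, a single clone that descends from EB3 mouse ES cells, and in 1 *Sox7* allele the coding region in exons 1 and 2 had been replaced by a puromycin resistance cassette. The cells made Gata6GR, full-length mouse *Gata6* joined to the ligand-binding domain of the human glucocorticoid receptor, from the CAG promoter of a piggyBac vector, and the medium of both groups held LIF. The untreated group is labelled as ES cells without *Gata6* induction at day 4, and the treated group as cells after 4 days of induction by Dex. No group had Dex without the transgene, so the action of Dex through the cells' own receptor and its action through Gata6GR cannot be told apart.

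In the blastocyst the inner cell mass divides into epiblast, which keeps the pluripotency network and makes *Fgf4*, and primitive endoderm, in which *Gata6* is active and the Fgf signal is received. Primitive endoderm then forms parietal endoderm, which lays down a thick basement membrane, and visceral endoderm, which takes up and passes on nutrients and patterns the epiblast. XEN cells are cell lines of this lineage, and ES cells in which *Gata6* is switched on come to look like them.

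Values are relative signals, the background-corrected brightness of a probe divided by the 75th percentile of its array, so a relative signal of 1 lies at that percentile. Changes are log2 differences between the XEN-like and the ES arrays, and a probe was called higher or lower at an adjusted p under 0.05 (limma, Benjamini-Hochberg) and a change over 2-fold. The 75th percentile itself lay between 283 and 416 intensity units on the ES arrays and between 252 and 274 on the XEN-like arrays, and no spot was saturated. All 6 arrays lay on 1 slide. Replicates correlated at 0.996 to 0.997 for ES and 0.983 to 0.994 for XEN-like cells (Pearson's r across probes). XEN-like replicate 3 stood apart: 7.74% of its probes were more than 1 log2 unit from the mean of the other XEN-like arrays, against 2.74% and 2.92% for those, so results that rest on it are given without it as well. The titles number the ES arrays from 1 to 3 while their source names all carry number 1, so whether these are separate cultures is not known, and the p-values then measure only the spread between these arrays.

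In all, 2690 probes were called higher in XEN-like than in ES cells (10.8% of those tested) and 3531 lower (14.1%), or 24.9% in either direction. By the brightest probe of each gene, 25.0% of 18372 genes were called. The falls were the deeper changes, with 1048 probes lower and 236 higher by over 8-fold. Of the probes called lower, many left the measurable range: 2082 tested probes were not well above background on any XEN-like array, against 161 on any ES array. For such probes only the smallest fold that the signals allow is given, written "at least". Among the 20628 probes well above background on every array of both groups, 2253 were higher (10.9%) and 1298 lower (6.29%). The groups did not overlap for 68.7% of all probes tested. RNA was taken from whole cultures, in which fewer cells of a type and less RNA per cell cannot be told apart.

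**Figure D1:**
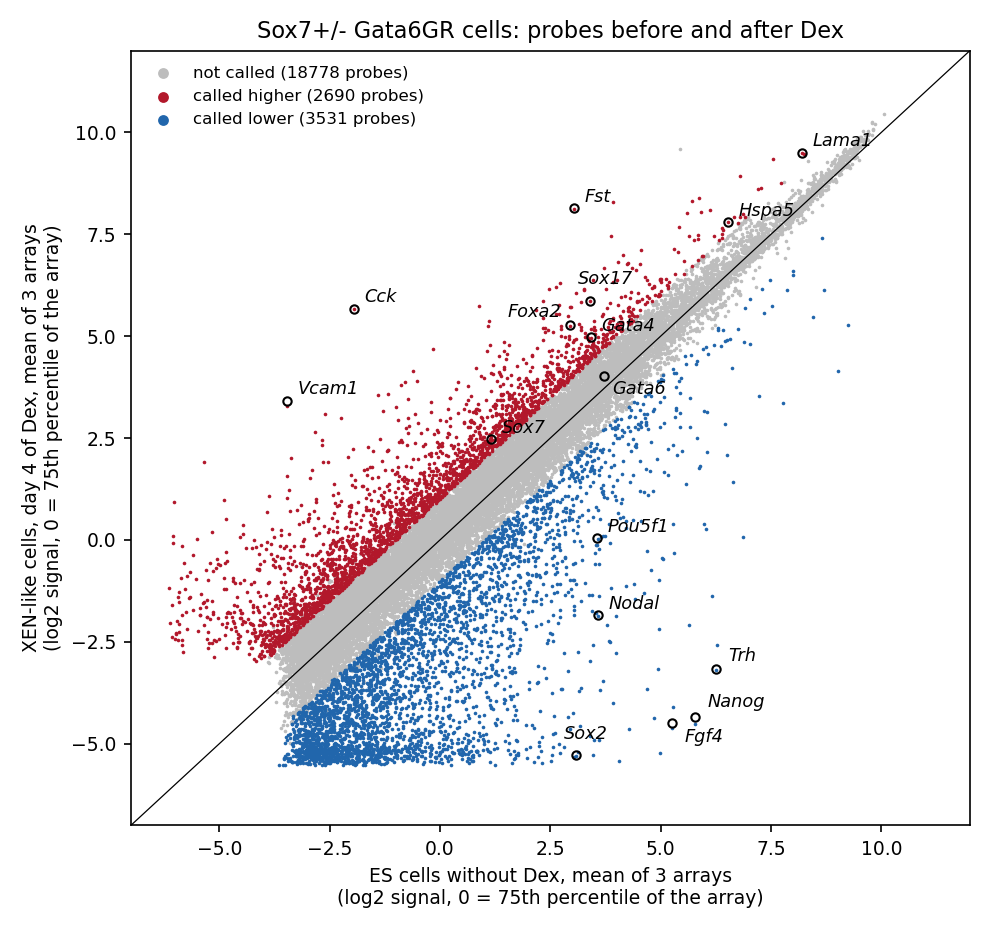
Mean log2 signal of each tested probe on the 3 ES arrays (horizontal axis) and the 3 XEN-like arrays (vertical axis), where 0 is the array's 75th percentile; red and blue points are the 2690 probes called higher and the 3531 called lower, grey points were not called, and circles mark named genes. Endoderm and matrix genes such as *Sox17*, *Fst* and *Lama1* lie above the diagonal of equal signal, and *Nanog*, *Fgf4* and *Trh* lie far below it.

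How many probes were called higher depended on the scale. With spike-in controls in place of the 75th percentile, 1184 probes were called higher and 5343 lower, and the median change of all tested probes went from 0.15 to −0.34. The authors' table with no scaling gave 843 higher and 3483 lower, with a median of −0.25. Spike-in scaling moved every change by about the same amount, so it could not turn a call. In the unscaled table no probe called in the main comparison was called in the opposite direction.

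Read by 1 probe per gene, the brightest, 18372 genes were tested, of which 10.8% were higher and 14.2% lower, with a median log2 change of 0.16. Genes were grouped into 40 lists of pathways and cell programs and 6 lists of markers of other cell types. A gene that passed the background rule through 1 group only had to differ, so counts are also given for the members above background in both groups, where 11.0% of all 15541 genes were higher and 6.67% lower.

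**Figure D2:**
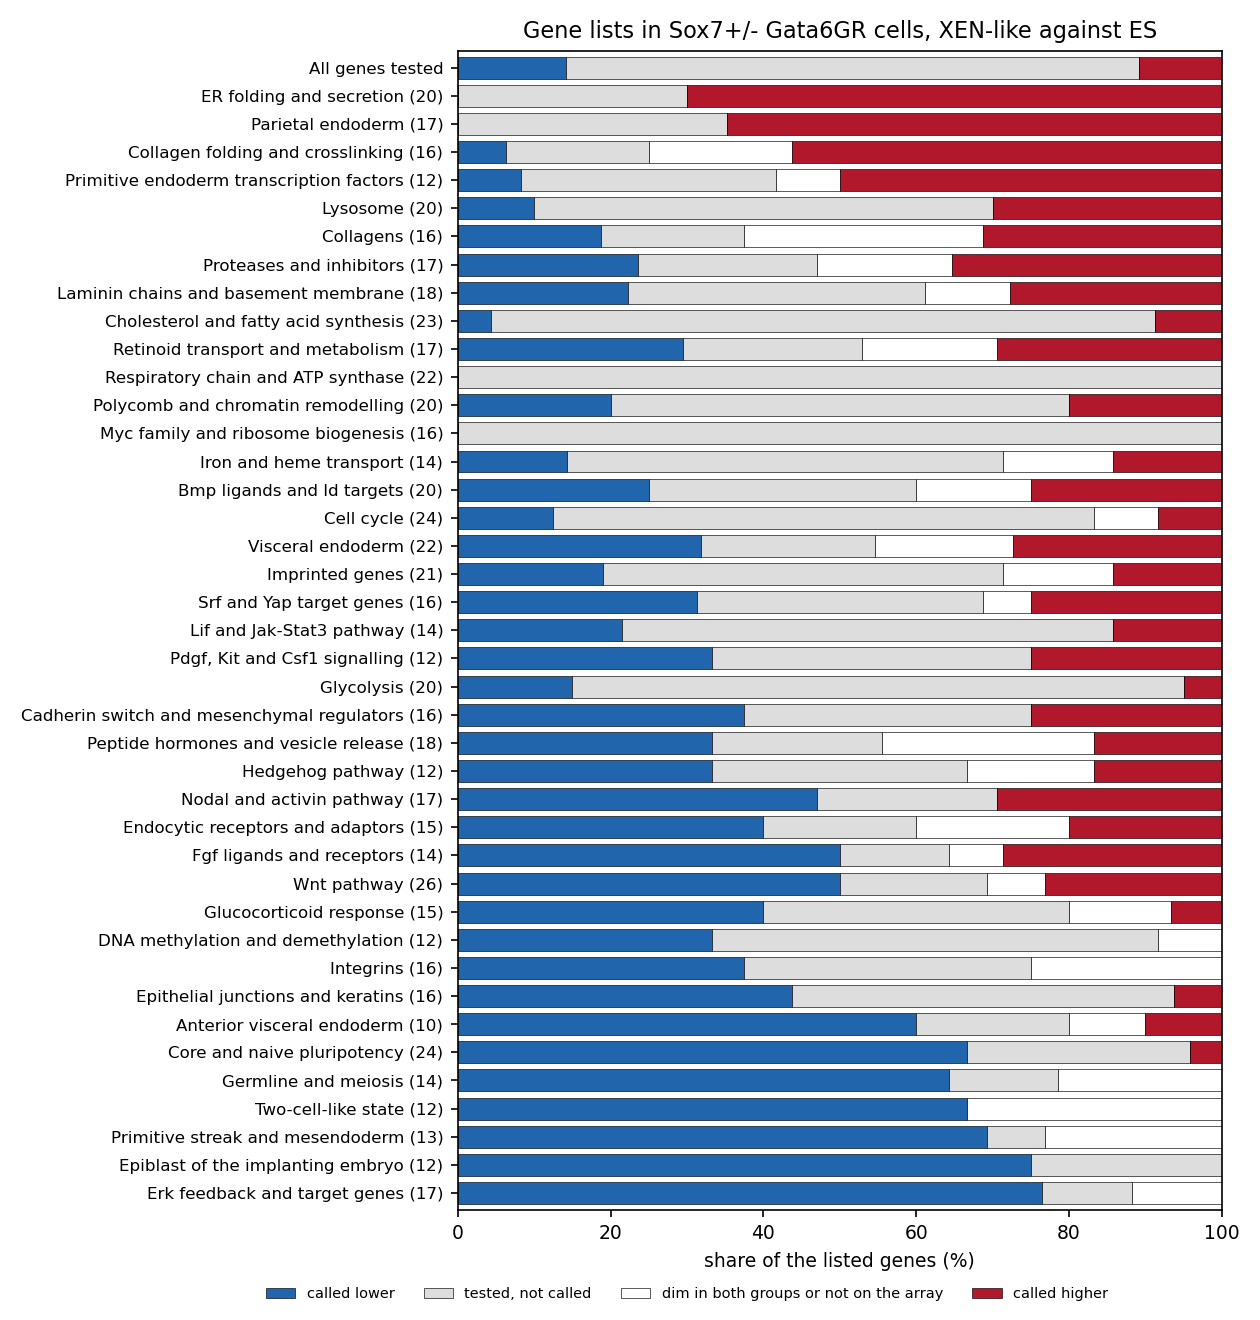
Share of the listed genes (horizontal axis, percent) called lower (blue), tested but not called (grey), dim in both groups or not on the array (white) and called higher (red), for each of the 40 program lists, with the number listed in brackets and all tested genes at the top. The ER, parietal endoderm, collagen folding and primitive endoderm lists hold the largest shares of genes called higher, and the Erk, epiblast and primitive streak lists the largest shares called lower.

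The transcription factors of primitive endoderm were raised from levels that could already be read without Dex. Of 12 listed, 11 passed, 6 were higher and 1 lower, and of the 10 above background in both groups 6 were higher and none lower. *Sox7*, read by a probe on chromosome 14 (64569419 to 64569478, mm9), had relative signals of 2.25, 2.18 and 2.29 in ES cells and 4.90, 4.95 and 6.88 in XEN-like cells. The groups did not overlap, and the log2 change was 1.30 (standard error 0.20, adjusted p = 2.3e-04), or 0.81 and not called with spike-in scaling.

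*Gata4*, the zinc finger partner of *Gata6* in endoderm, went from 10.6, 11.3 and 10.2 to 32.3, 34.8 and 26.8, a change of 1.54 (standard error 0.096). *Sox17*, the close relative of *Sox7*, went from 9.66, 10.6 and 11.4 to 66.4, 56.7 and 51.9, a change of 2.46 (standard error 0.11). *Foxa2*, a forkhead pioneer factor, went from 7.81, 7.71 and 7.56 to 43.5, 41.3 and 31.1, a change of 2.31 (standard error 0.12). In all 3 genes each XEN-like array was above each ES array. *Zfpm1*, the Gata cofactor *Fog1*, rose by 2.77 and *Snai1*, a repressor of *Cdh1*, by 1.47 (0.98 and not called with spike-in scaling). *Hnf4a*, the nuclear receptor of visceral endoderm and liver, changed by 0.87 and was not called.

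*Gata6* itself was not called. Its probe read 12.8, 13.4 and 13.0 in ES cells and 18.4, 19.8 and 10.7 in XEN-like cells (log2 change 0.27, standard error 0.19, adjusted p = 0.23), and the groups overlapped because of XEN-like replicate 3, without which the change was 0.55. With spike-in scaling and in the unscaled table the change was −0.22. Whether the probe also reads the *Gata6* part of the transgene was not tested. *Foxa1*, a relative of *Foxa2*, was the listed factor that fell, with a change of −2.17, or −2.93 without XEN-like replicate 3, and 1 XEN-like array still read it above background.

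**Figure D3:**
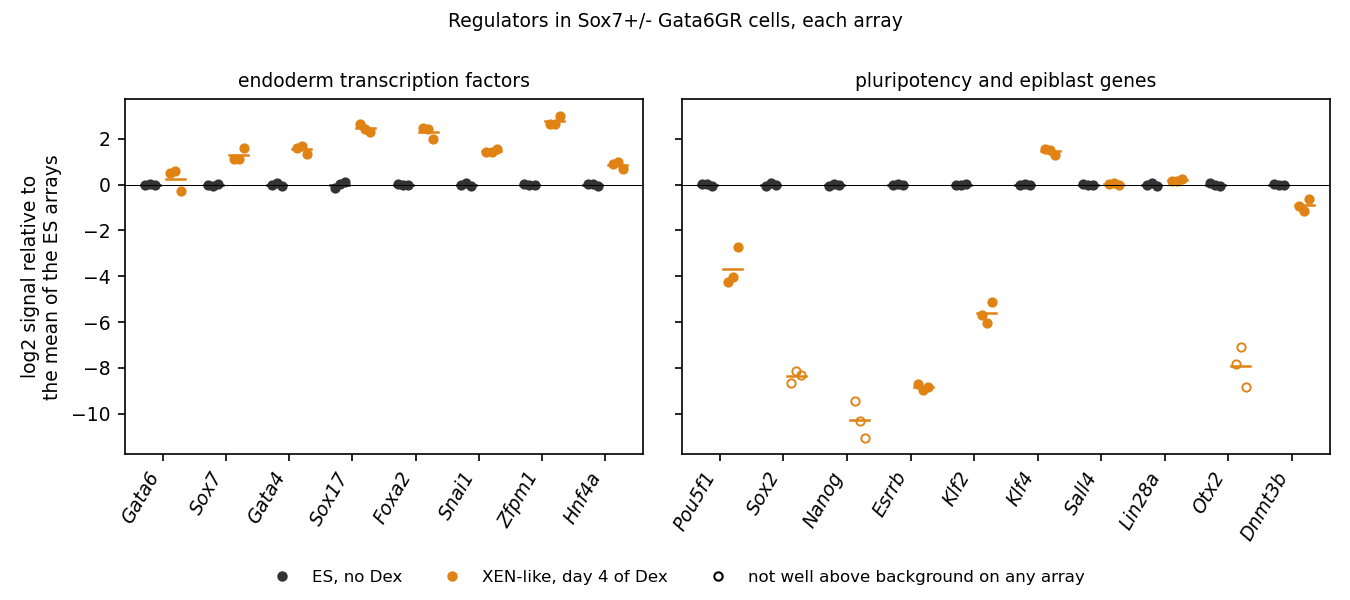
Log2 signal of each array relative to the mean of the 3 ES arrays (vertical axis), for endoderm transcription factors on the left and pluripotency and epiblast genes on the right; black points are ES arrays, orange points XEN-like arrays, open points mark groups in which no array was well above background, and bars are group means. *Sox17*, *Foxa2* and *Zfpm1* lie above 2 on every XEN-like array, *Gata6* straddles 0, and *Nanog*, *Esrrb* and *Sox2* lie below −8 on average.

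Most of the pluripotency network was lowered. Of 24 listed genes, all of which passed, 16 were lower and 1 higher, with a median change of −4.01, and of the 19 above background in both groups 11 were lower. *Pou5f1*, the Oct3/4 gene, read 11.8, 12 and 11.3 in ES cells and 0.611, 0.713 and 1.77 in XEN-like cells, a change of −3.67 (standard error 0.49, adjusted p = 8.0e-05). Its level stayed above background on each XEN-like array and was highest in replicate 3.

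On their brightest probes, partners of *Pou5f1* fell further. *Sox2* read 8.12, 8.84 and 8.46 in ES cells and was not well above background on any XEN-like array, a fall of at least 90.2-fold. The brightest *Nanog* probe was likewise not above background on any XEN-like array and had been at 53.2, 56.6 and 53.9, so its fall was at least 581-fold. The other *Nanog* probes disagreed: 1 changed by −7.46. The probe that was dimmest in ES cells was read on all 6 arrays and changed by 1.01, from 0.456, 0.551 and 0.480 to 0.875, 1.05 and 1.07. *Esrrb*, a nuclear receptor of the naive state, went from 75.6, 79.8 and 76.3 to 0.186, 0.154 and 0.168, a change of −8.84 (standard error 0.086), while a second *Esrrb* probe fell by 3.63. The groups were apart on every one of these brightest probes.

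Other naive-state genes followed. *Nr0b1* (−6.36), *Klf2* (−5.63), *Utf1* (−5.59), *Tfcp2l1* (−4.98) and *Zfp42*, the Rex1 gene (−4.20), fell too. *Tcl1*, a cofactor of Akt, was at least 335-fold lower. *Klf4* was the only listed gene called higher, from 17.6, 18.0 and 17.7 to 52.3, 50.1 and 44.2, a change of 1.46 (standard error 0.070) that was 0.97 and not called with spike-in scaling. *Lin28a*, the let-7 binding protein, was at 33.3, 35.4 and 32.6 without Dex and at 38.1, 37.9 and 40.3 with it, a change of 0.20 that was not called and was −0.29 with spike-in scaling.

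ES cultures hold a few cells that pass through a state like that of the 2-cell embryo, and its genes were lost. All 8 listed genes on the array, of 12 listed, were lower, and 6 of them were not well above background on any XEN-like array. *Zscan4f*, of the Zscan4 family that protects telomeres, went from 29.6, 30.8 and 31.6 to 0.111, 0.109 and 0.116, a change of −8.10, with 1 XEN-like array above background. *Zscan4c* was at least 119-fold and *Zscan4e* at least 257-fold lower. These genes are near-identical copies, and probes may read several of them. *Zfp352*, the member still read on all 6 arrays, fell by 1.61.

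Genes that mark the epiblast as it leaves the naive state fell as well: of 12 listed and passed, 9 were lower and none higher, with a median of −2.44, and of the 9 above background in both groups 6 were lower. *Otx2*, a homeobox regulator of the primed state, read 15.9, 15.3 and 14.5 in ES cells and was at least 152-fold lower, while a second *Otx2* probe changed by −0.76. *Fgf5* was at least 23.2-fold and *Foxd3* at least 12.1-fold lower. *Pou3f1*, the Oct6 gene, fell by 4.70 and was read on all 6 arrays.

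Most primitive streak and germline genes that passed were called lower. Of 13 streak genes 10 passed and 9 were lower, 7 of them not above background on any XEN-like array, and only *Eomes*, which fell by 1.85, and *Tbx6* (0.73, not called) could be read in both groups. *T*, the Brachyury gene, was at least 6.97-fold lower. Of 14 germline genes 11 passed and 9 were lower, and of the 3 above background in both groups 2 were lower. *Tdrd12* and *Mael*, of the piRNA pathway, were at least 29.7-fold and 31.8-fold lower, and *Sycp3*, of the meiotic chromosome axis, fell by 2.96. With normexp background correction the streak and germline lists had 4 and 5 genes called lower.

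Genes of parietal endoderm rose. All 17 listed genes were above background in both groups, 11 were higher and none lower, and the median change was 1.98 (1.49 with spike-in scaling, with 10 higher). Laminin-111 is built from the chains *Lama1*, *Lamb1* and *Lamc1*, and all 3 rose. *Lama1* went from 294, 296 and 291 to 659, 750 and 767, a change of 1.30 (standard error 0.080) that was 0.81 and not called with spike-in scaling. *Lamb1* rose by 1.81, and *Lamc1* from 110, 117 and 107 to 505, 527 and 436, a change of 2.13 (standard error 0.099).

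Other parts of this membrane rose in part. *Col4a1* and *Col4a2*, the chains of its collagen network, were higher by 2.44 and 2.26. *Nid1*, which bridges laminin and collagen IV, went from 14.5, 14.5 and 14.7 to 182, 175 and 171, a change of 3.60 (standard error 0.061). *Sparc*, a collagen-binding protein that is a classical parietal marker, was already bright, at 886, 892 and 861, and reached 1073, 1224 and 1383, a change of 0.47 that was not called and was −0.018 with spike-in scaling.

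Secreted and surface proteins of parietal endoderm changed more. *Fst*, the activin antagonist follistatin, went from 8.42, 8.08 and 7.98 to 291, 315 and 236, a change of 5.09 (standard error 0.096, adjusted p = 6.9e-11). *Thbd*, thrombomodulin, rose by 3.50, *Plat*, tissue plasminogen activator, by 3.03, and *Pth1r*, the receptor for parathyroid hormone related peptide, by 2.19. *Nid2* and *Vim*, at 0.83 and 0.69, were not called, and without XEN-like replicate 3 they were called at 1.10 and 1.08.

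Basement membrane genes beyond the parietal set moved both ways. Of 18 laminin and basement membrane genes 16 passed, 5 were higher and 4 lower, with a median of 0.47 that became −0.02 with spike-in scaling, and 14 of them could be read in both groups, 5 higher and 2 lower. *Lama4* rose by 3.12. *Fn1*, fibronectin, fell from 65.0, 68.5 and 65.5 to 10.6, 11.1 and 5.71, a change of −2.92. *Col18a1*, which carries endostatin, read 38.7, 35.3 and 42.8 in ES cells and was at least 413-fold lower. *Lama5*, the laminin chain of later epithelia, fell by 1.04, and *Lamb3* was at least 4.43-fold lower.

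Among 16 collagens, 11 passed, 5 were higher and 3 lower, and of 7 above background in both groups 4 were higher and 1 lower. *Col6a1* went from 0.156, 0.127 and 0.198 to 7.20, 6.92 and 3.21, a change of 5.11, and *Col27a1* rose by 3.43. *Col6a2*, the partner chain of *Col6a1*, was at least 3.92-fold higher. *Col1a1*, the main collagen of fibroblasts, was at least 9.26-fold lower and *Col1a2* fell by 1.94.

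Integrins are the receptors through which cells hold this matrix, and no listed one was called higher. Of 16, 12 passed and 6 were lower, with a median of −1.41, but of 8 above background in both groups 2 were lower and the median was −0.04. *Itga3* (−2.79), *Itgb4* (−2.30) and *Itgb7* (−4.51) fell, the last with 1 XEN-like array above background. *Itgb1*, the common beta chain, changed by 0.98 and was not called, and without XEN-like replicate 3 it was called at 1.26.

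Proteases and their inhibitors moved in both directions, with 6 higher and 4 lower of 14 that passed among 17, and 6 higher and 1 lower of 11 above background in both groups. *Timp2* and *Timp3*, inhibitors of matrix metalloproteases, rose by 2.51 and 2.11, and *Mmp15*, a membrane-bound metalloprotease, by 2.45. *Procr*, the receptor of protein C, rose by 3.14. *Mmp2*, the gelatinase A gene, was at least 6.18-fold lower.

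Most enzymes that fold and crosslink collagen rose: of 16 listed 13 passed, 9 were higher and 1 lower (9 and none of the 12 above background in both groups), with a median of 1.79 (1.30 with spike-in scaling, with 8 higher). *Serpinh1*, the collagen chaperone Hsp47, went from 68.8, 69.5 and 69.6 to 272, 278 and 270, a change of 1.98 (standard error 0.062). The prolyl hydroxylases *P4ha1* and *P4ha2* rose by 2.08 and 1.58, and the lysyl hydroxylases *Plod1*, *Plod2* and *Plod3* by 2.34, 2.64 and 2.14. *Loxl2*, which crosslinks collagen IV, rose by 3.53, from 5.03, 5.39 and 4.77 to 49.5, 49.3 and 82.0. *Loxl1* was the member that was lower, at least 4.80-fold.

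The folding machinery of the endoplasmic reticulum (ER) was raised in most of its listed members, by under 2 on the log2 scale. All 20 listed genes were above background in both groups, and 14 were higher and none lower, with a median of 1.26 and a range from −0.05 to 1.67. These calls depended on the scale: 2 of the 20 were called with spike-in scaling and 2 in the unscaled table, with medians of 0.77 and 0.81. *Hspa5*, the chaperone BiP, went from 92.3, 92.8 and 92.1 to 217, 223 and 231, a change of 1.27 (standard error 0.057). *Hsp90b1* rose by 1.25, the disulfide isomerase *Pdia6* by 1.40, *Pdia4* by 1.46 and *Calr*, calreticulin, by 1.67 (1.41 without XEN-like replicate 3). *Xbp1* and *Creb3l1*, transcription factors that act on secretory genes, rose by 1.39 and 1.41. *Atf6* (−0.05) and *Canx* (0.28) were not called.

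The promoters of several of these chaperones hold the ER stress element, which *Atf6* and *Xbp1* bind together with NF-Y. It was searched as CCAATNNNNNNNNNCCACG on both strands in the 250 bases before the start of each gene (RefSeq, GRCm38.p6), and it was chosen for this list after the values were seen. It lay in 37 of 32851 promoters (0.113%) and in 18 of 12895 promoters of genes tested (0.140%). The counts were 7 of 1605 promoters of genes called higher (0.436%), 3 of 1966 of genes called lower (0.153%) and 5 of the 18 ER promoters found in the table. *Hspa5*, *Hsp90b1*, *Pdia6* and *Calr* count both among the genes called higher and among the ER promoters. The 5 are printed to show that a gene that was not called, *Canx*, holds the same letters as those that were. Capitals mark the 5 letters at each end of the element, in either orientation, and all are written in the direction of the gene.
Hspa5, chr2:34771840-34772089, plus strand, log2 change 1.27: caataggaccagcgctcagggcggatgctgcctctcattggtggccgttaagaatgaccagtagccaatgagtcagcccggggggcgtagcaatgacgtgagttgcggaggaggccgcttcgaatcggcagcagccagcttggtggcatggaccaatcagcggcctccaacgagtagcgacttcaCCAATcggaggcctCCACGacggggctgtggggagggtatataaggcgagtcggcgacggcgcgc
Hsp90b1, chr10:86705445-86705694, minus strand, log2 change 1.25: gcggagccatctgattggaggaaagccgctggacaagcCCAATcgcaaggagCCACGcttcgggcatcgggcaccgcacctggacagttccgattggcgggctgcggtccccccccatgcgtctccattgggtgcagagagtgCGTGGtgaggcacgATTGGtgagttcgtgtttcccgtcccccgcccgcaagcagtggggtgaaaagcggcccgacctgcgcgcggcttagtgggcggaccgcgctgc
Pdia6, chr12:17266339-17266588, plus strand, log2 change 1.40: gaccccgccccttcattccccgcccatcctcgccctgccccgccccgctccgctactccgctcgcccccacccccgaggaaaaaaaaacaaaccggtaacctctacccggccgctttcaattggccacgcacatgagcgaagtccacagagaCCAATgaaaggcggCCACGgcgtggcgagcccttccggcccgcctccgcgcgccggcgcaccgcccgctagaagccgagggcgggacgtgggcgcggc
Calr, chr8:84846932-84847181, minus strand, log2 change 1.67: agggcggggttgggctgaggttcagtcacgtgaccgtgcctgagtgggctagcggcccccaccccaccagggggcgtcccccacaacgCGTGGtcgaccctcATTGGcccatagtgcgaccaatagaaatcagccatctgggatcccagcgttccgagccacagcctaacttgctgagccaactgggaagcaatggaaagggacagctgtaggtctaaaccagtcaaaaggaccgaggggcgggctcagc
Canx, chr11:50325674-50325923, minus strand, log2 change 0.28: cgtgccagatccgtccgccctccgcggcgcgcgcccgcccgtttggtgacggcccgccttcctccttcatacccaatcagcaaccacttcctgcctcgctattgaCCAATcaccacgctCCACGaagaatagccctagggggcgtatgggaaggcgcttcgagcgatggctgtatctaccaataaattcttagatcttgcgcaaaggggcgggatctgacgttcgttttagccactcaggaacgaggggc
*Hsp90b1* holds the element in both directions. A match is a description of these letters only.

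**Figure D4:**
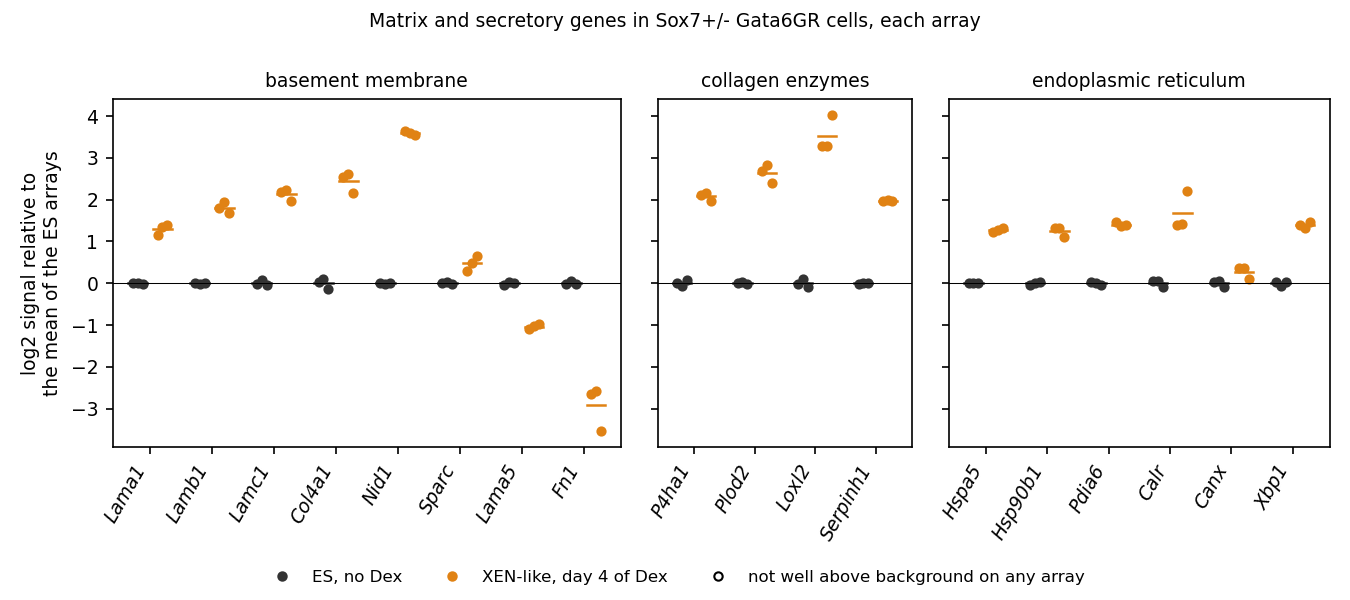
Log2 signal of each array relative to the mean of the 3 ES arrays (vertical axis) for basement membrane genes, collagen enzymes and ER genes; black points are ES arrays, orange points XEN-like arrays and bars are group means. *Nid1*, *Loxl2* and *Plod2* rose most, and *Lama5* and *Fn1* lie below 0. The ER genes lie near 1.3, except *Calr*, which lies higher, and *Canx*, which lies lower.

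Visceral endoderm genes were split. Of 22 listed 18 passed, 6 were higher and 7 lower, with a median of −0.20, and of 16 above background in both groups 6 were higher and 5 lower. The serum protein genes *Afp*, *Apoa1* and *Alb* were not above background on any of the 6 arrays. *Ttr*, transthyretin, rose by 2.54, from 0.382, 0.311 and 0.324 to 2.29, 2.58 and 1.28. *Ihh*, the hedgehog ligand of visceral endoderm, went from 5.01, 5.31 and 5.23 to 38.3, 36.4 and 28.7, a change of 2.72. *Cited1*, a transcriptional coregulator, rose by 2.32 and *Dpp4*, a surface peptidase, by 2.25. *Rbp4*, which carries retinol in serum, rose by 2.92, or 3.91 without XEN-like replicate 3, in which it read 1.32 against 10.03 and 10.4.

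Receptors for uptake also parted. *Cubn* and *Amn*, which form the cubam receptor, fell (−1.85 and −2.08), while *Lrp2*, megalin, rose by 1.54. Over the wider list of endocytic receptors and adaptors, 12 of 15 passed, 3 were higher and 6 lower, or 3 and 4 of the 10 above background in both groups. *Lrp4* rose by 2.43 and *Vldlr* by 1.32, and *Lrp1* fell by 2.03. *Apom*, an apolipoprotein that carries sphingosine 1-phosphate, fell by 2.65.

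Signals of the anterior visceral endoderm were not gained as a group. Of 10 listed 9 passed, 6 were lower and 1 higher, though of the 4 above background in both groups 1 was higher and 1 lower. *Lefty1*, a *Nodal* antagonist, was at least 68.9-fold lower, and *Hesx1* at least 3.73-fold lower. *Sfrp5*, which binds Wnt ligands, was the gene called higher, from 0.477, 0.392 and 0.365 to 9.20, 8.81 and 8.85, a change of 4.45. *Hhex* (0.92, but called at 1.01 without XEN-like replicate 2) and *Dkk1* (0.73) were not called, and *Cer1* was dim in both groups.

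The cells exchanged cadherins. *Cdh1*, E-cadherin, went from 12.3, 12.4 and 11.6 to 1.10, 0.886 and 0.646, a change of −3.82 (standard error 0.16). *Cdh2*, N-cadherin, went from 1.56, 1.74 and 1.61 to 7.50, 7.04 and 3.44, a change of 1.79 (standard error 0.24). The groups did not overlap for either gene. Of 16 genes of this switch, all of which passed, 4 were higher and 6 lower, and of 12 above background in both groups 4 were higher and 3 lower. *Zeb1* and *Zeb2*, repressors of *Cdh1*, rose by 1.83 and 1.64. *Grhl2* and *Epcam*, which belong to epithelia, fell (−4.24 and −2.84), the first without being read on every XEN-like array. *Esrp1*, a splicing factor of epithelia, fell by 1.69, and its change was −1.11 without XEN-like replicate 3.

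Junction genes fell in part. Of 16 listed and passed, 7 were lower and 1 higher, with a median of −0.66, and of 13 above background in both groups 4 were lower and 1 higher. With spike-in scaling 11 were lower. *Cldn3* was at least 23.4-fold lower, and *Cgn* and *Tjp3*, tight junction adaptors, fell (−3.61 and −3.26). The keratins *Krt8* and *Krt18* changed by −0.61 and −0.72 and were not called. *Krt19* rose by 1.27.

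Among Fgf genes the main ES cell ligand was lost and the receptors were exchanged. *Fgf4*, the ligand through which ES cells signal to themselves, read 37.7, 37.6 and 39.2 in ES cells and was not well above background on any XEN-like array, a fall of at least 406-fold. *Fgf10* rose by 1.98. *Fgfr1* went from 12.4, 12.4 and 13.2 to 2.46, 2.15 and 2.13 on its brightest probe, a change of −2.50 (standard error 0.087), although another *Fgfr1* probe changed by 0.16. *Fgfr3* went from 2.48, 2.55 and 2.51 to 18.3, 16.9 and 16.7, a change of 2.78 (standard error 0.061). *Fgfr4* rose by 2.30. Of 14 ligands and receptors 13 passed, 4 were higher and 7 lower, with a median of −2.50, but of the 7 above background in both groups 4 were higher and 1 lower, with a median of 1.32.

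Genes that Erk signalling turns on, many of which restrain it in turn, fell together. Of 17 listed 15 passed and 13 were lower, with a median of −2.54, and of 10 above background in both groups 8 were lower. *Myc* (−0.71) and *Ier3* (−0.24) passed and were not called. *Etv5*, an Ets factor that reports Fgf activity, went from 65.4, 65.9 and 63.5 to 1.27, 1.09 and 1.27, a change of −5.75 (standard error 0.087, adjusted p = 2.2e-11). *Etv4* (−3.56) and *Etv1* (−3.94) fell.

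*Dusp6*, the phosphatase of Erk, went from 10.9, 10.8 and 11.6 to 0.313, 0.274 and 0.0561, a change of −6.03, or −5.24 without XEN-like replicate 3, the array on which it was not above background. *Dusp4* fell by 2.93. *Spry1*, an inhibitor of receptor signalling, fell by 5.32 with 1 XEN-like array above background, *Spry2* fell by 1.61, and *Spry4* was at least 3.23-fold lower. With normexp background correction 9 of these genes were called lower.

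*Nodal* ligands fell, and some genes that carry the signal rose. Of 17 listed and passed, 8 were lower and 5 higher, and of 12 above background in both groups 3 were lower and 5 higher. With spike-in scaling 2 were higher. *Nodal* went from 11.3, 12.4 and 12.1 to 0.315, 0.262 and 0.256, a change of −5.43 (standard error 0.14). Its feedback inhibitor *Lefty2* fell by 6.11, with 1 XEN-like array above background. *Gdf3* fell by 3.65 and *Inhbb* was at least 11.5-fold lower. *Smad2*, which carries the signal, rose by 1.45, and *Cfc1*, a coreceptor, by 3.09. *Tdgf1*, the coreceptor Cripto, changed by −0.67 on its brightest probe and was not called, while its other probes were at −6.84 and −8.34.

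Most listed Bmp ligands that could be read fell, and *Bmp2* rose. *Gdf6* and *Gdf2*, Bmp family ligands outside the list, also rose and are given below. *Bmp4* went from 12.9, 14.2 and 14.1 to 0.405, 0.334 and 0.0960, a change of −5.87 (standard error 0.42), or −5.22 without XEN-like replicate 3, with 2 XEN-like arrays above background. The ligands *Bmp6* (−2.25), *Bmp7* (−2.43) and *Bmp8b* (−3.46) also fell, the last 2 without being read on every XEN-like array. In the other direction, *Bmp2* went from 1.88, 1.71 and 1.87 to 10.6, 9.93 and 9.61, a change of 2.46 (standard error 0.082). Of 20 listed 17 passed, 5 were higher and 5 lower, and of 14 above background in both groups 5 were higher and 2 lower. *Bmper*, which binds Bmps outside the cell, rose by 2.60. Among target genes, *Msx2* rose by 2.14 and *Id2* by 1.17 (0.99 and not called without XEN-like replicate 1), and *Id3* changed by 0.46. *Smad7*, an inhibitor of both branches, fell by 2.62.

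Of 26 Wnt pathway genes 24 passed, 13 were lower and 6 higher, with a median of −1.04, and of 16 above background in both groups 7 were lower and 6 higher, with a median of −0.14. With normexp background correction 6 were called lower and 5 higher. Secreted proteins led the rises. *Rspo3*, which boosts Wnt signals at the receptor, went from 0.247, 0.207 and 0.187 to 8.16, 7.03 and 8.62, a change of 5.22 (standard error 0.13), and *Wnt11* from 0.619, 0.603 and 0.606 to 5.88, 5.99 and 6.59, a change of 3.33. *Wnt6* was at least 13.9-fold lower and *Fzd10*, a receptor, fell by 3.76. Among genes that Wnt signals turn on, *Sp5* was at least 19.8-fold lower, *Lef1* fell by 2.49 and *Nkd1* fell by 1.67.

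Hedgehog genes moved both ways. The ligand *Ihh* rose, as given above, while the ligand *Dhh* was at least 3.01-fold lower, a call that was lost without ES replicate 2 or 3 or XEN-like replicate 1 or 2. *Boc*, a coreceptor, rose by 5.39 from signals above background on 2 of 3 ES arrays. *Gli1*, which hedgehog signals induce, read 3.98, 4.01 and 4.32 in ES cells and was at least 43.7-fold lower. *Gli2* was at least 4.13-fold lower and *Gli3* fell by 1.37. Of 12 listed 10 passed, 2 were higher and 4 lower, or 1 and 1 of the 6 above background in both groups.

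**Figure D5:**
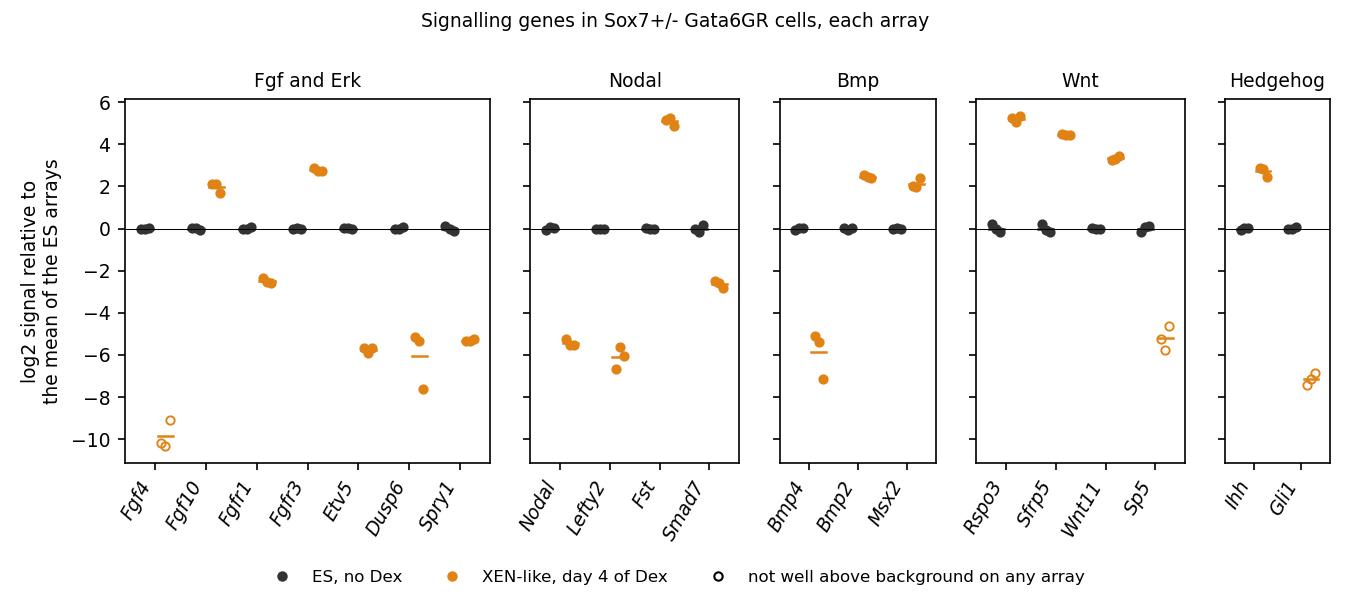
Log2 signal of each array relative to the mean of the 3 ES arrays (vertical axis) for genes of 5 signalling pathways; black points are ES arrays, orange points XEN-like arrays, open points mark groups in which no array was well above background, and bars are group means. *Fgf4*, *Nodal* and *Bmp4* lie more than 5 below 0, while the secreted proteins *Fgf10*, *Fst*, *Bmp2*, *Rspo3*, *Sfrp5*, *Wnt11* and *Ihh* lie above 0.

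*Pdgfra* and Kit, receptor tyrosine kinases, rose, and Pdgf ligands fell. *Pdgfra*, a surface marker of primitive endoderm, went from 6.68, 6.41 and 6.13 to 25.2, 25.4 and 24.6, a change of 1.97 (standard error 0.059). Kit rose from 2.55, 2.71 and 2.58 to 14.5, 14.9 and 7.83, a change of 2.19. *Pdgfa*, the ligand of *Pdgfra* made by epiblast, fell by 1.78, and *Pdgfb* (−2.98) and *Pdgfc* (−3.50, or −2.77 without XEN-like replicate 3) fell. *Pdgfc* was not read on every XEN-like array. Of 12 genes of Pdgf, Kit and *Csf1* signalling, all of which passed, 3 were higher and 4 lower, or 3 and 2 of the 9 above background in both groups. *Csf1* rose by 1.05, and without XEN-like replicate 3 it was at 0.79 and not called.

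LIF was in the medium of both groups, and 5 genes of its pathway were called. Of 14 listed and passed genes 2 were higher and 3 lower (1 and 3 of the 13 above background in both groups), with a median of 0.33 that became −0.16 with spike-in scaling. *Lifr*, *Jak1* and *Socs3* changed by 0.98, 0.94 and 0.98 and were not called, although *Lifr* was called at 1.0 without XEN-like replicate 2 and *Socs3* at 1.02 to 1.11 without ES replicate 2 or 3 or XEN-like replicate 1 or 2. *Jak2* rose by 1.29. *Bcl3*, an I-kappa-B protein, went from 10.4, 11.7 and 12.9 to 0.329, 0.274 and 0.272, a change of −5.32, and *Pim1*, a kinase that *Stat3* induces, fell by 1.72.

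Dex also binds the cells' own glucocorticoid receptor, so known targets of that receptor were read. Of 15 listed 13 passed, and 1 was higher and 6 lower, with a median of −0.99, and all 13 were above background in both groups. *Zbtb16* rose by 1.85, from dim signals of 0.145, 0.0886 and 0.157 to 0.610, 0.603 and 0.257. *Fkbp5*, among the most regular of these targets, went from 7.41, 7.55 and 8.06 to 1.59, 1.39 and 2.11, a change of −2.20 (standard error 0.13). *Mt2*, a metallothionein, fell by 4.42, and *Dusp1* (−1.82) and *Cebpd* (−2.38) fell.

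*Tsc22d3*, the *Gilz* gene, read 0.934, 1.11 and 1.08 in ES cells and 2.03, 2.23 and 0.470 in XEN-like cells. The groups overlapped and it was not called (0.31, adjusted p = 0.58), but without XEN-like replicate 3 the change was 1.04 and called. The receptor gene *Nr3c1* changed by −0.30 and was not called.

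Retinoid genes moved in both directions, with 5 higher and 5 lower of 14 that passed among 17, and 5 and 3 of the 12 above background in both groups. *Cyp26a1*, which breaks down retinoic acid, went from 2.37, 2.16 and 2.0 to 51.1, 51.9 and 27.5, a change of 4.26 (standard error 0.21). *Aldh1a1*, which makes it, rose by 3.51, or 4.31 without XEN-like replicate 3, and *Aldh1a2* was at least 4.44-fold lower. *Stra6*, the receptor for *Rbp4*, rose by 1.34. *Rarg*, a retinoic acid receptor, fell from 18.4, 19.6 and 17.9 to 0.485, 0.531 and 0.376, a change of −5.34, and the binding protein *Crabp2* fell by 2.25.

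Lysosomal genes were raised in part. All 20 listed genes were above background in both groups, 6 were higher and 2 lower, and the median was 0.80. Without XEN-like replicate 3, 9 were higher, and with spike-in scaling 3 were higher and 3 lower. *Lamp2* rose by 1.58, *Psap* by 1.71 and *Lgmn*, the legumain protease, by 1.27. *Ctsc* fell by 2.44. Of 14 iron and heme genes 12 passed, 2 were higher and 2 lower, or 2 and 1 of the 11 above background in both groups. *Slc39a8*, a metal importer, rose by 2.14, and *Trf*, transferrin, fell by 3.05 without being read on every XEN-like array.

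Enzymes of DNA methylation fell or were not called. Of 12 listed 11 passed, 4 were lower and none higher, with a median of −0.85 (3 of the 10 above background in both groups), and with spike-in scaling 7 were lower. *Dnmt3l*, the cofactor of de novo methylation, went from 64.5, 63.0 and 60.5 to 9.53, 8.79 and 8.68, a change of −2.80 (standard error 0.068). *Tet1* and *Tet2*, which oxidize methylcytosine, fell (−2.59 and −2.43). *Dnmt3b* changed by −0.90 and was not called, and without XEN-like replicate 3 it was called at −1.04.

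Chromatin genes changed one by one. All 20 listed Polycomb and remodelling genes passed, 4 were higher and 4 lower, and the median was −0.08. *Jarid2* and *Eed*, of Polycomb complex PRC2, fell (−2.88 and −1.49), and *Phc1*, of PRC1, fell by 3.28. *Bmi1*, also of PRC1, rose by 1.07. *Smarca2*, the ATPase Brm, rose by 2.38.

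Few genes of energy metabolism and growth were called. None of 22 respiratory chain and ATP synthase genes was called, and their changes lay between −0.79 and 0.48. Of 20 glycolysis genes 1 was higher and 3 lower: *Pfkm*, the muscle phosphofructokinase, rose by 1.72, and *Pfkp*, the platelet form, fell by 1.82 on its brightest probe. The medians of these lists were 0.21 and 0.13, and they turned to −0.28 and −0.36 with spike-in scaling. None of 16 genes of the *Myc* family and ribosome biogenesis was called, but 15 of their changes were negative and the median was −0.56. With spike-in scaling 10 of them were called lower.

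Of 23 cholesterol and fatty acid genes, 2 were higher and 1 lower. *Insig1*, which holds back sterol synthesis, rose by 2.14 and *Idi1* fell by 1.37. With spike-in scaling 9 were lower.

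Most cell cycle genes were not called. Of the D cyclins, *Ccnd1* fell, *Ccnd2* rose and *Ccnd3*, the brightest, changed by 0.62 and was not called. *Ccnd3* read 53.2, 53.7 and 51.2 in ES cells and 79.6, 76.9 and 86.5 in XEN-like cells. Of 24 listed 22 passed, 2 were higher and 3 lower, and of 21 above background in both groups 2 were higher and 2 lower. *Ccnd1* read 3.25, 3.28 and 3.05 in ES cells and was at least 34.0-fold lower, and *Ccnd2* rose from 3.26, 3.28 and 3.16 to 12.04, 10.7 and 10.02, a change of 1.75. *Cdkn1a*, the inhibitor p21, rose by 1.65 and *Cdkn1c*, the inhibitor p57, fell by 2.77. *Mki67*, present in dividing cells, changed by 0.48 and was not called. With spike-in scaling 7 cell cycle genes were lower.

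Imprinted genes had 3 higher and 4 lower of 18 that passed among 21, and 3 and 3 of the 16 above background in both groups. *Sgce* and *Peg3* rose by 2.12 and 1.65, *Phlda2*, which limits placental growth, was at least 16.5-fold lower and *Snrpn* fell by 1.58. Among Srf and Yap target genes 15 of 16 passed, all above background in both groups, and 4 were higher and 5 lower. *Acta2* and *Tagln*, of smooth muscle filaments, fell (−3.57 and −3.32). *Myl9* rose by 2.56. *Ctgf*, a Yap target, rose by 2.53, with 155, 153 and 57.0 in XEN-like cells against 19.3, 18.9 and 19.4 in ES cells.

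Some peptide hormone genes changed far, in both directions. *Cck*, cholecystokinin, went from 0.236, 0.263 and 0.276 to 48.4, 51.2 and 53.5, a change of 7.63 (standard error 0.30, adjusted p = 8.0e-09), the largest rise among called probes that could be read in both groups. *Trh*, thyrotropin releasing hormone, went from 76.5, 74.5 and 77.1 to 0.135, 0.0823 and 0.116, a change of −9.45 (standard error 0.16, adjusted p = 2.9e-11), with 1 XEN-like array above background. Among called probes read on all 6 arrays, the fall of *Esrrb* given above was the largest. Of 18 listed 13 passed, 3 were higher and 6 lower, or 2 and 2 of the 7 above background in both groups. *Calca*, the calcitonin gene, fell by 3.75, and *Chga*, a granin of secretory vesicles, was at least 21.3-fold lower.

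Beyond the lists, the next largest rises were those of *Vcam1* (6.75), an adhesion molecule, and of 4632428N05Rik (5.69). *Vcam1* read 0.0973, 0.0967 and 0.0786 in ES cells, above background on 2 arrays, and 13.7, 13.3 and 5.09 in XEN-like cells. Rises of 4.59 to 4.99 were those of *Oaf*, *W17435*, *Kcng1*, *Serinc2*, 9130024F11Rik, *Sp8*, *Gdf6* and 5330421C15Rik, of which *Kcng1* is a potassium channel subunit, *Sp8* a zinc finger factor and *Gdf6* a Bmp family ligand. *Sp8* has another tested probe, at 2.01. *W17435*, 9130024F11Rik and 5330421C15Rik were above background on 1 ES array each and *Gdf6* on 2, and 9130024F11Rik was at 4.08 without XEN-like replicate 1. Of genes unreadable in ES cells, *Vit* was at least 31.7-fold, *Ccbe1* at least 30.8-fold, *Gdf2* at least 18.3-fold, *Doc2b* at least 17.3-fold and *Mpeg1* at least 17.0-fold higher. *Gdf2* is the ligand Bmp9, and *Ccbe1* acts in lymphatic vessel growth.

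Among the largest falls were those of *Gm20767* (−7.73), *AF067061* (−7.53), *Ly6c1* (−6.86), *Ephx2* (−6.82), *C2* (−6.40), *Fam25c* (−6.37), *Urah* (−6.32), *Gm4303* (−6.29) and *Vgf* (−6.17). *Ephx2* is the soluble epoxide hydrolase, *C2* a complement component and *Vgf* a neuroendocrine secreted protein. Of these 9 genes, *Gm20767*, *AF067061* and *Urah* were above background on all 3 XEN-like arrays, and the sizes of the other falls lie near the floor of the arrays. Leaving out 1 array moved *C2* to −5.62 (without XEN-like replicate 3), *Gm4303* to −5.58 (without replicate 2) and *Vgf* to −6.83 (without replicate 1).

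Markers of other cell types were read for signals that the XEN-like program does not name. The listed markers summed to relative signals of 12.2 to 12.4 in ES and 3.02 to 4.00 in XEN-like cells for trophectoderm, of 17.2 to 18.4 and 3.96 to 4.55 for nerve cells, and of 6.25 to 6.72 and 5.35 to 5.59 for fibroblasts. The sums rose for cardiac muscle, from 4.11 to 4.35 up to 12.3 to 28.3, and for endothelium, from 13.2 to 14.4 up to 15.5 to 19.6, and for blood they were 5.07 to 5.38 and 5.42 to 5.72. Of 10 cardiac markers 6 passed, 4 were higher and 1 lower, or 2 and 1 of the 3 above background in both groups.

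*Myl3*, a myosin light chain, went from 0.707, 0.822 and 0.590 to 21.4, 23.0 and 6.65, a change of 4.41. *Nkx2-5*, a heart transcription factor, rose by 4.50, or by 2.845 with normexp background correction. *Nkx2-5* was not read above background on all 6 arrays, so the size of its rise depends on the floor of the arrays. *Tnnt2*, *Tbx5* and *Mef2c* were not above background on any XEN-like array. Of 10 endothelial markers 6 passed, 1 was higher and 2 lower, or 1 and 1 of the 5 above background in both groups. Their median change was −0.89 although their sum rose. *Tek*, the angiopoietin receptor Tie2, rose by 3.30, *Esam* fell by 2.53 and *Cldn5* was at least 2.35-fold lower, while *Emcn* and *Erg* were dim on all 6 arrays. Of 10 blood markers 3 passed and none was called. The part of other cell types in the changes above was not tested.

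The response of *Sox7* (+/−) cells was set beside that of *Sox7* (−/−) cells in the same fit. Each genotype was a single line on the arrays, and the *Sox7* (−/−) line had been selected at a high puromycin dose. Genotype therefore cannot be told apart from line, and the arrays of a group are not replicates of a genotype. Of 18372 genes, 1278 (6.96%) had a change that was higher in *Sox7* (−/−) cells and 556 (3.03%) a change that was lower, by the same rule on the difference itself. Such a difference can lie in the untreated cells as well as in the treated ones. Of the 6 endoderm factors called higher, *Sox7* alone had a called difference (−1.57, *Sox7* (−/−) minus *Sox7* (+/−)). The *Sox7* (−/−) cells lack the *Sox7* coding region, so this difference was fixed by the genotype, and the *Sox7* change in them was −0.27. No tested gene of the DNA methylation and Polycomb lists had a called difference. The visceral endoderm list had 14 genes with a higher change in *Sox7* (−/−) cells and none with a lower one, and the junction list 12 and none. *Cdh2* (−2.63) and *Zeb1* (−3.49) had a lower change there. The 3 ES arrays and 1 XEN-like array of *Sox7* (−/−) cells lay on another slide than the *Sox7* (+/−) arrays. With slide as a block 1527 probes had a higher and 622 a lower change there, against 1639 and 756 without it. No group but the *Sox7* (−/−) XEN-like arrays was split between slides, so the slide term rests on that 1 array. These counts therefore cannot show what the slides contribute.

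Short GATA motifs were counted in promoters as a description. The motif AGATAA or any of its 3 close relatives (searched in turn as TGATAA, then as AGATAG and then as TGATAG) lay on either strand of the 250 bases before 17.1% of 1605 promoters of genes called higher, 19.1% of 1966 of genes called lower and 17.5% of 12895 of all genes tested. Across the 32851 promoters of the table the share was 26.5%.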

How the data were processed

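RNA of *Sox7* (+/−) and *Sox7* (−/−) cells was hybridised in 1 colour (Cy3) to Agilent SurePrint G3 mouse arrays, 1 array per sample, and groups were taken from the sample titles. The authors deposited scanner files of spot intensity, made with Agilent Feature Extraction 10.7.3.1 per the submitters' processing notes, with background subtracted and trends removed within each array but no scaling between arrays. They also deposited, as other values, flags of 0 or 1 for spots well above background, and a table of unscaled mean spot intensity for the whole series. Probe positions are those of the files (mm9). The number of arrays limits the precision.

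Processed intensity was set to log2 after division by the 75th percentile of each array, control spots and outlier flags were left out, and spots of 1 probe were averaged. A linear model over the 4 groups (12 arrays) was fitted in limma 3.58.1 (R 4.3.3) with eBayes, and p-values were adjusted by Benjamini-Hochberg over the 24999 probes. The 12 arrays share 1 estimate of the spread. Calls needed both an adjusted p below 0.05 and a difference of more than 2-fold. Of the 24999 probes, 22 lack a value on at least 1 of the 6 arrays, and the fit uses the arrays that remain. The model was tested on simulated arrays of 24963 probes, of which 200 were changed, and 190 of these were called with 8 false calls. In the data 6221 probes were called, and the rate of false calls in such data was not tested. A gene with several probes was read by the brightest. Tables were made with pandas 2.3.3 and figures with matplotlib 3.10.9. Promoters of 250 bases come from RefSeq (GRCm38.p6).

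Where no array of a group was well above background, the bright group's mean was set against, per array of the dim group, the higher of the lowest signal among probes well above background and the probe's own signal, which gives a lower bound of the fold.

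Named were 8 fixed regulators, up to 4 of the largest rises and falls of each list with some defining members, and over all probes the 15 largest rises and falls and the 5 largest bounds each way. Other members named in the text were chosen after their values were seen. A few members that the rule would name are not reported here. The members and lists were chosen with earlier results of these data known. Alternatives changed the background correction, the scaling, the filter on dim probes, the probes per gene, the model, the blocks, the call rule and the arrays used. Same-numbered arrays of the groups correlated in their deviations at 0.042 to 0.142, and the arrays were left unpaired. All 6 arrays compared share a slide, so slide cannot differ between these groups.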

Additional observations from a re-analysis of the deposited data

Results flagged for a closer look

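The Dex response of named genes was compared between the genotypes in the same limma fit, and these genes had a called difference (adjusted p under 0.05 and over 2-fold). Values are the log2 change in *Sox7* (−/−) cells minus that in *Sox7* (+/−) cells. For a gene that no array of a group read above background the size depends on the floor of the arrays. Each genotype was a single line, so genotype cannot be told apart from line. Slide overlaps in part with genotype and, within *Sox7* (−/−) cells, with Dex. What the slides contribute to these values was not tested gene by gene.

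Among genes of early endoderm, parietal and visceral endoderm, the change was higher in *Sox7* (−/−) cells for *Apom* (6.35), *Ttr* (4.55), *Hesx1* (3.95), *Cited1* (3.68), *Cubn* (3.67), *Amn* (3.61), *Ihh* (3.46), *Pth1r* (2.09), *Hnf4a* (2.01), *Thbd* (1.92), *Lrp2* (1.80), *Sfrp5* (1.77), *Lefty1* (1.74), *Dpp4* (1.70), *Cdh1* (1.59), *Hhex* (1.14) and *Epcam* (1.13). The change was lower in these cells for *Sox7* (−1.57), whose coding region they lack, and *Vim* (−1.22).

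Among genes of pluripotency, the 2-cell-like state, epiblast, primitive streak and germline, the change was higher in *Sox7* (−/−) cells for *Zscan4e* (6.21), *Zscan4c* (6.10), *Zscan4f* (5.80), *T* (3.59), *Tcl1* (3.53), *Esrrb* (3.35), *Pou3f1* (3.33), *Eomes* (2.38), *Fgf5* (1.63), *Sycp3* (1.22) and *Mael* (1.21). It was lower there for *Lef1* (−2.28), *Klf2* (−2.10), *Zfp352* (−1.75), *Foxd3* (−1.39), *Sox2* (−1.16), *Tdgf1* (−1.09) and *Tbx6* (−1.02).

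Among genes of matrix, proteases, cadherins and junctions, the change was higher in *Sox7* (−/−) cells for *Timp3* (3.40), *Cldn3* (3.32), *Krt18* (3.02), *Cgn* (3.0), *Krt8* (2.32), *Esrp1* (2.18), *Tjp3* (2.12), *Col27a1* (1.85), *Grhl2* (1.84), *Timp2* (1.78), *Itga3* (1.64), *Col1a2* (1.55), *Krt19* (1.26) and *Col18a1* (1.17). It was lower there for *Zeb1* (−3.49), *Lama4* (−2.76), *Cdh2* (−2.63), *Zeb2* (−1.40), *Fn1* (−1.26) and *Col1a1* (−1.15).

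Among genes of the Fgf, Erk, *Nodal* and Bmp pathways, the change was higher in *Sox7* (−/−) cells for *Cfc1* (3.41), *Id2* (3.02), *Bmp8b* (2.53), *Bmp2* (2.38), *Spry1* (1.36), *Bmp6* (1.33), *Ier3* (1.06) and *Fgfr4* (1.05). It was lower there for *Myc* (−2.65), *Inhbb* (−2.49) and *Dusp4* (−1.66).

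Among genes of the Wnt, Hedgehog, Pdgf and Lif pathways, the change was higher in *Sox7* (−/−) cells for *Sp5* (4.60), *Pdgfb* (3.22) and *Bcl3* (1.71). It was lower there for *Gli2* (−1.85), *Boc* (−1.80), *Nkd1* (−1.61), *Fzd10* (−1.57), *Socs3* (−1.21), *Gli3* (−1.09) and *Pim1* (−1.03).

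Among genes of the other lists and markers of other cell types, the change was higher in *Sox7* (−/−) cells for *Myl3* (3.56), *Tagln* (3.46), *Ctsc* (3.28), *Myl9* (2.96), *Acta2* (2.94), *Phlda2* (2.74), *Peg3* (2.46), *Insig1* (2.38), *Cdkn1c* (2.21), *Esam* (2.01), *Slc39a8* (1.76), *Mt2* (1.60), *Sgce* (1.58), *Cyp26a1* (1.30), *Cck* (1.27), *Cldn5* (1.15), *Lgmn* (1.14), *Trh* (1.09) and *Idi1* (1.0). It was lower there for *Doc2b* (−4.44), *Nkx2-5* (−3.75), *Calca* (−1.88) and *Pfkp* (−1.18).

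Outside the lists, the change was higher in *Sox7* (−/−) cells for *Gm4303* (6.03), *Gm20767* (5.28), *AF067061* (4.97), *C2* (4.11), *Vgf* (3.68), 4632428N05Rik (1.80), *Sp8* (1.75) and *Gdf6* (1.21). Lower changes were found for *Serinc2* (−2.25) and *Mpeg1* (−2.19).

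The genes *Amn*, *Apom* and *Cubn* were called lower in *Sox7* (+/−) cells and had changes of 1.53, 3.70 and 1.82 in *Sox7* (−/−) cells.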

How the results depend on the processing

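The number of probes called higher (2690) was 1535 with normexp background correction, 1184 with spike-in scaling, 843 in the authors' unscaled table, 1705 for those values scaled to the 75th percentile, 4225 without a filter on dim probes, 9533 without a minimum fold and 1251 with limma's treat at 2-fold. The number called lower (3531) was 1884 with normexp, 5343 with spike-in scaling, 2094 in the scaled table, 1299 with a filter on all 6 arrays and 6458 without a minimum fold. The filter on all 6 arrays leaves out every probe that fell out of the measurable range. The share of higher among all calls went from 43.2% to 18.1% with spike-in scaling, 19.5% in the unscaled table, 51.0% without a filter, 63.5% with the filter on all 6 arrays, 59.6% without a minimum fold and 33.8% with treat, and the median of all probes was 0.40 without a filter and 0.06 with quantile normalization. Otherwise the cause was not tested.

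Leaving out 1 of the 6 arrays gave 2563 to 2799 probes higher and 3459 to 3586 lower. Without XEN-like replicate 3, 5701 of the 6221 calls remained (91.6%), 520 were lost and 522 gained, and none turned. With the replicate block, 2680 probes were higher and 3483 lower, 6101 calls remained, and no call of a named gene changed. With spike-in scaling, which could not turn a call, 4715 calls remained. With unscaled values 3588 remained and none turned.

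The number of probes whose change was higher in *Sox7* (−/−) cells (1639) was 928 with normexp background correction, 2895 with spike-in scaling, 1006 in the scaled table, 1000 with the filter on all 6 arrays, 3152 without a minimum fold and 592 with limma's treat at 2-fold. The number whose change was lower there (756) was 451 with normexp background correction, 308 with spike-in scaling, 212 in the unscaled table, 497 in the scaled table, 3537 without a filter on dim probes, 467 with the filter on all 6 arrays, 3878 without a minimum fold and 111 with limma's treat at 2-fold. Leaving out 1 array gave 1520 to 1719 and 657 to 823.

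Several named genes that were not called changed sign. With spike-in scaling *Gata6* was at −0.22, *Lin28a* at −0.29, *Canx* at −0.21, *Sparc* at −0.018, *Id3* at −0.025, *Mki67* at −0.0127 and *Tsc22d3* at −0.18. In the unscaled table *Gata6* was at −0.22, *Lin28a* at −0.20, *Canx* at −0.16, *Sparc* at −0.0206, *Id3* at −0.0355 and *Tsc22d3* at −0.0444, and with quantile normalization *Lin28a* was at −0.011. *Atf6* was at 0.0296 with normexp, at 0.0238 in the scaled table, at 0.0242 without ES replicate 1 and at −0.187 to 0.17 when any 1 array was left out. *Tsc22d3* was at −0.0188 without XEN-like replicate 1 and at −0.085 without replicate 2, the lowest of a range that reached 1.04.

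With spike-in scaling 19 named genes that rose lost their call, namely *Sox7*, *Lama1*, *Klf4*, *Snai1*, *Smad2*, *Jak2*, *Stra6*, *Vldlr*, *Krt19*, *Lgmn*, *Id2*, *Csf1*, *Bmi1* and, of the ER list, *Hspa5*, *Hsp90b1*, *Pdia4*, *Pdia6*, *Xbp1* and *Creb3l1*, and *Krt8*, *Krt18*, *Myc*, *Tdgf1* and *Dnmt3b* were called lower. With unscaled values 23 named genes lost their call. With normexp, *Foxa1*, *Spry4*, *Hesx1*, *Lamb3*, *Nkd1*, *Zeb2*, *Bmi1*, *Csf1*, *Cldn5* and *Dhh* lost theirs. Dim probes limit the sizes of the falls: the lowest signals well above background were at 0.0578 to 0.101 of the 75th percentile.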
